A study of Rattus norvegicus with 6 samples.

Results

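The thrombospondin family comprises Thbs1, Thbs2, Thbs3, Thbs4 and Comp, 5 of the 15388 genes counted in the thyroid of Sprague-Dawley rats. The members were taken by gene symbol, and all 5 were present in the table of every sample. The family was selected on the measured difference of Thbs4 between late pregnant and non-pregnant rats, so the differences between the groups given for the members are a description, with no test. Thyroids were collected from adult non-pregnant females (NP, 3 samples) and from adult females on day 18 of pregnancy (late pregnancy, LP, 3 samples), with the morning of the vaginal plug counted as day 1. No treatment and no genetic change was applied in either group, and the age of the rats was not given. Tissue was snap-frozen, and poly(A)+ RNA was sequenced to between 2752144 and 3449857 counted reads a sample.

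Thrombospondins are calcium-binding glycoproteins that are secreted into the extracellular matrix. Thbs1 and Thbs2 assemble as trimers and carry the thrombospondin type 1 repeats through which they bind Cd36 on endothelial cells and restrain the growth of blood vessels, and Thbs1 can also release TGF-β from its latent complex. Thbs3, Thbs4 and Comp (cartilage oligomeric matrix protein) assemble as pentamers, lack type 1 repeats and are best known from tendon, cartilage, bone and muscle. The follicles of the thyroid lie in a dense bed of capillaries, and which of its cells make these proteins was not measured here.

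The promoters of the members are shown because the study searched the promoters of genes that rose in LP for transcription factor sites, of which that of MAZ, a zinc finger protein that binds GC-rich promoters, was one. The sequences are from RefSeq on the assembly GRCr8 and cover the 250 bases before the start site of each gene, written 5′ to 3′ on the gene's own strand. This assembly is not the one the reads were mapped to (rn5). The study scanned longer stretches with scored site models and also found TFCP2, whose site was not searched here. The exact matches below are therefore not comparable with the sites of the study. An entry was found for 4 of the 5 members, with none for Thbs2. The capitals mark GGGAGGG, the core of the MAZ site, or its reverse complement CCCTCCC.
Thbs1 (chr3:125510000-125510249, plus strand): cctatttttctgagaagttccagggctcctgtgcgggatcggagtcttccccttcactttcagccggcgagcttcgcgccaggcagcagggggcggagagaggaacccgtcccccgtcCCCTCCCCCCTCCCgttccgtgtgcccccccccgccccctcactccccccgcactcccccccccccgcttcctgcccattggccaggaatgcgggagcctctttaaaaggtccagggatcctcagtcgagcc
Thbs3 (chr2:176919349-176919598, plus strand): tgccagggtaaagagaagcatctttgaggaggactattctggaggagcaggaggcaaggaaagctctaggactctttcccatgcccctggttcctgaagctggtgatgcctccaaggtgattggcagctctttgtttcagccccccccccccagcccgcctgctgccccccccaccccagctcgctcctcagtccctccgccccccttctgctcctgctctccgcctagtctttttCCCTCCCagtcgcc
Thbs4 (chr2:25760346-25760595, minus strand): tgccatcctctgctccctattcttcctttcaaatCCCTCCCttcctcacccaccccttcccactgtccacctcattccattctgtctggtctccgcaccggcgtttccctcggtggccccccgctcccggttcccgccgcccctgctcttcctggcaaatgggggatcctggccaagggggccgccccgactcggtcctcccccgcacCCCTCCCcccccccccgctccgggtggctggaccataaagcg
Comp (chr16:19089549-19089798, minus strand): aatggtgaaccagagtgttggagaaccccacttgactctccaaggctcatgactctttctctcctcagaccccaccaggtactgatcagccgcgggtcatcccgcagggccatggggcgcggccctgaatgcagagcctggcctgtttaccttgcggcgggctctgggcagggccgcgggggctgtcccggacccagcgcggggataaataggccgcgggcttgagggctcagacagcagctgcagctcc

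The promoter of Thbs1 held 2 matches to the MAZ core, at 132 and 125 bases before the start site, counted to the first base of the match. That of Thbs4 held 2 as well, at 216 and 42 bases before the start, and that of Thbs3 held 1, at 14 bases before it. Comp had none. A match was found in 18.65% of all 33469 rat promoters of this length and in 25.7% of the 8782 promoters of genes tested here. The GC content was 67.6% for Thbs1, 61.6% for Thbs3, 67.6% for Thbs4 and 64.8% for Comp, against a median of 51.2% over all promoters and of 60.8% over those of the tested genes. The E-box CANNTG, searched on both strands, occurred once in the Thbs4 promoter, 95 bases before the start, and 2 times in that of Comp, with none in those of Thbs1 and Thbs3. It was present in 65.54% of all promoters. The TATAAA box, the MEF2 motif and the CArG box were searched likewise and had no match in these windows, against 12.93%, 3.41% and 1.5% of all promoters. These matches are letters in a window and not measured binding.

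The samples within a group were not equally distinct. Between replicates 2 and 3, the difference was no larger than sampling noise gives, with a chi-square per degree of freedom of 1.02 in NP and of 0.995 in LP. Replicate 1 stood apart from them, with values from 3.70 to 4.11, while pairs of 1 NP and 1 LP sample gave 12.5 to 16.5. For this reason replicates 2 and 3 enter every mean ± SD together, as 1 sample (n = 2 a group). The collection protocol names 3 rats for each group, but no label ties a sample to 1 rat, so the p-values given for other genes measure the spread between these samples, which may be technical. Levels are in counts scaled to the library total (CPM), scaled with TMM normalization. Transcript lengths were not used, so levels are compared between groups for the same gene and not between genes.

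Thbs4 (ENSRNOT00000083531) rose from near the detection limit in NP to a clear level in every LP sample. It had 4, 8 and 8 NP reads in replicates 1, 2 and 3, and 84, 82 and 94 LP reads in the same order. In CPM, these were 1.43, 2.62 and 2.63 in NP and 26.8, 24.3 and 27.9 in LP. The groups were far apart, since the lowest LP value was 9.26 times the highest NP value. The means were 2.03 ± 0.845 CPM in NP and 26.5 ± 0.501 CPM in LP (SD, n = 2). The log2 fold change of the edgeR model was 3.53 ± 0.23 (SE), an 11.5-fold difference. The ratio of the summed reads, 20 in NP and 260 in LP, was 11.1 when scaled by library totals without TMM. Its exact 95% interval for counting error was 7.07 to 18.5. Of 11738 genes ranked by their log2 fold change, Thbs4 was number 162 from the top. The difference was larger for replicate 1 (log2 ratio 4.23) than for replicates 2 and 3 together (3.31), and replicate 1 of NP is also the sample with only 4 reads. Thbs4 passed the filter on low counts only through its LP samples. It was among the genes the study measured again by qRT-PCR, in other animals, with the forward primer aataccatccctgctaccc and the reverse primer ggcatcacatctgaaaccc. Those measurements were not analysed here.

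Thbs1 (ENSRNOT00000083351), the trimeric member that binds Cd36 and activates TGF-β, was moderately higher in LP. It had 102, 126 and 121 reads across NP and 143, 157 and 187 across LP, or 36.4, 41.3 and 39.7 CPM against 45.7, 46.6 and 55.5 CPM. Every LP value lay above every NP value, but by little, since the lowest LP value was 1.11 times the highest NP value. The means were 38.5 ± 2.87 and 48.3 ± 3.80 CPM (SD, n = 2), with a log2 fold change of 0.33 ± 0.10 (SE), or 1.26-fold. Replicate 1 (0.33) and replicates 2 and 3 (0.33) gave the same log2 ratio. The adjusted p-value of Thbs1 lay on the side below 0.05 in the model of all samples, and on the other side without NP replicate 1 (log2 fold change 0.28), without NP replicate 3 (0.33), without LP replicate 3 (0.23) and with DESeq2 (0.33).

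Thbs2 (ENSRNOT00000014552), the other trimeric member and like Thbs1 an inhibitor of vessel growth, had 21, 26 and 26 reads across NP and 36, 32 and 40 across LP. In CPM these were 7.50, 8.52 and 8.54 against 11.5, 9.49 and 11.9. The groups did not overlap, with the lowest LP value at 1.11 times the highest NP value. The means were 8.02 ± 0.725 and 11.1 ± 0.574 CPM (SD, n = 2), and the log2 fold change was 0.41 ± 0.20 (SE), or 1.33-fold. The difference was larger in replicate 1 (0.62) than in replicates 2 and 3 (0.32). The ratio of the summed reads was again scaled by library totals without TMM. With so few reads, its exact 95% counting interval ran from 0.934 to 1.73, which includes no difference.

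Thbs3 (ENSRNOT00000087934), a pentameric member known from the growing skeleton, had 35, 40 and 49 reads across NP and 49, 65 and 66 across LP. Its values were 12.5, 13.1 and 16.1 CPM in NP and 15.6, 19.3 and 19.6 CPM in LP. The groups overlapped, as LP replicate 1 lay below NP replicate 3. The means were 13.6 ± 1.48 and 17.5 ± 2.68 CPM (SD, n = 2), with a log2 fold change of 0.39 ± 0.17 (SE), or 1.31-fold. The ratio of the summed reads, scaled by library totals without TMM, was 1.24, with an exact 95% counting interval of 0.984 to 1.58. This ratio lay below the 1.31-fold of the TMM-scaled model, so nothing is concluded from the lower end of the interval.

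Comp (ENSRNOT00000083281), the pentameric matrix protein of cartilage and tendon, was at the edge of detection in every sample. It had 1, 4 and 1 reads across NP and 5, 8 and 4 across LP, or 0.357, 1.31 and 0.328 CPM against 1.60, 2.37 and 1.19 CPM. The groups overlapped, and a count of 3 reads, taken as the smallest level these depths can show, corresponded to 0.87 to 1.09 CPM. The summed reads were 6 in NP and 17 in LP, a ratio of 2.43 when scaled by library totals without TMM. Its exact 95% counting interval was 0.914 to 7.52. Comp was below the filter on low counts, and its log2 fold change of 1.30 ± 0.66 (SE) is from the fit without that filter. It was 2.20 without NP replicate 2, the sample that held 4 of the 6 NP reads.

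**Figure D1:**
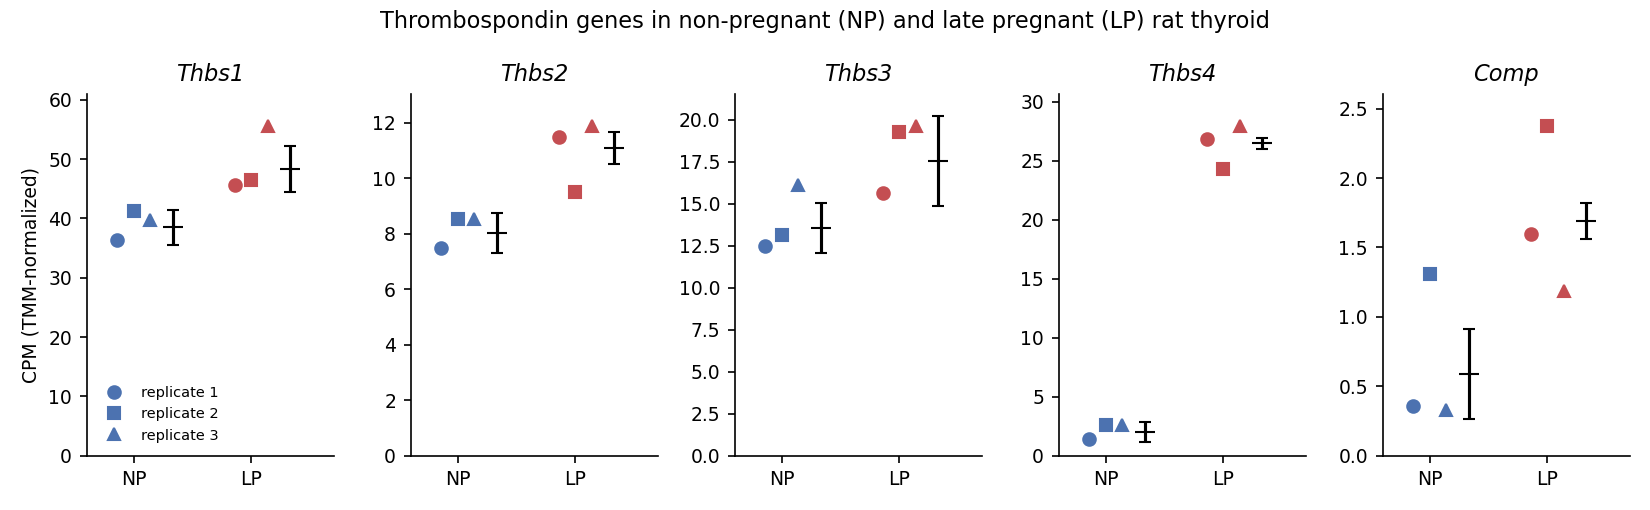
TMM-normalized CPM of each thrombospondin gene in the 3 NP samples (blue) and the 3 LP samples (red), with symbols for the replicates and a black bar for the mean ± SD (n = 2, replicates 2 and 3 counted as 1 sample). Each panel has its own axis from 0. Thbs4 lies between 1.43 and 2.63 CPM in NP and between 24.3 and 27.9 CPM in LP, while Thbs3 and Comp overlap between the groups.

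All 5 members had a higher fitted level in LP. The study's criteria (more than 2-fold, with adjusted p-value under 0.05) were passed by 1 of the 4 members tested, Thbs4, where 4.9% of the 11738 genes passed them as higher and 0.537% as lower. The p-value criterion alone was met by 2 of the 4 (Thbs1 and Thbs4), all as higher, against 15.3% of all genes higher and 11.7% lower. Every LP sample lay above every NP sample for 3 of the 4 (Thbs1, Thbs2 and Thbs4), against 21.1% of all genes. Since the members were chosen with this contrast in view, nothing is read from these counts. The difference of Thbs4 was of another size than those of Thbs1, Thbs2 and Thbs3, whose log2 fold changes lay between 0.33 and 0.41.

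**Figure D2:**
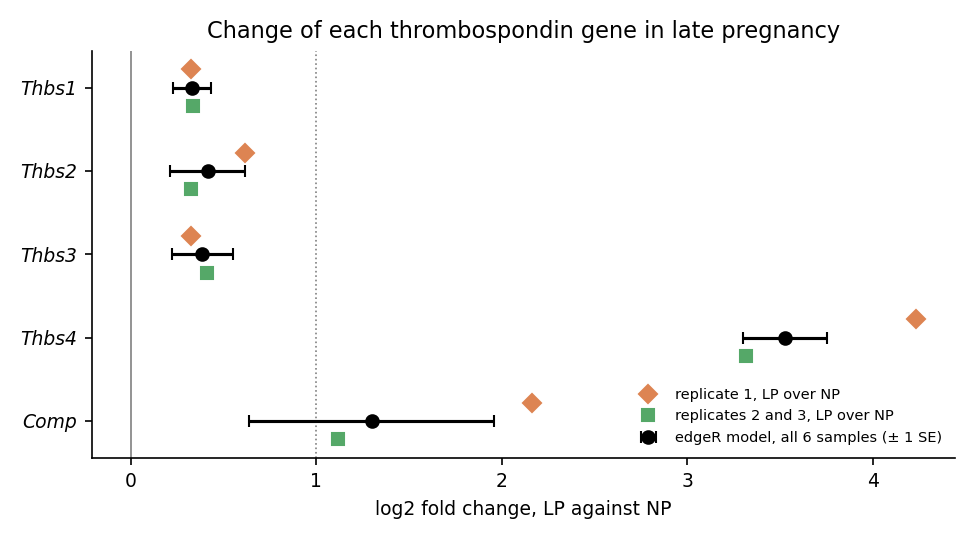
Log2 fold change of LP against NP for each member, with black points for the edgeR model of all 6 samples ± 1 SE, orange diamonds for replicate 1 alone and green squares for replicates 2 and 3. Grey lines mark no difference and, dotted, a 2-fold difference, and Thbs4, at 3.53, and Comp, at 1.30 on few reads, lie past the dotted line.

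The reads of the family as a whole, and their make-up, differed accordingly. The summed level was 58.2, 66.8 and 67.3 CPM in NP and 101, 102 and 116 CPM in LP, with means of 62.7 ± 6.25 and 105 ± 5.54 CPM (SD, n = 2). Without Thbs4 it was 60.6 ± 5.40 CPM in NP and 78.7 ± 6.04 CPM in LP, and the groups still did not overlap. Thbs4 made up 2.45%, 3.92% and 3.90% of the family's reads across NP and 26.5%, 23.8% and 24.0% across LP. Over the summed reads this was 3.50% of 572 in NP (exact 95% binomial interval 2.15 to 5.35%) and 24.7% of 1052 in LP (22.1 to 27.4%). The share of Thbs1 was lower in LP, at 46.3% (43.2 to 49.4%) against 61.0% (56.9 to 65.0%), although its own level was not. Thbs3 made up 21.7% in NP and 17.1% in LP, Thbs2 12.8% and 10.3%, and Comp 1.05% and 1.62%. Intervals and detection limits cover counting error only, and shares are of reads, which also depend on transcript length.

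**Figure D3:**
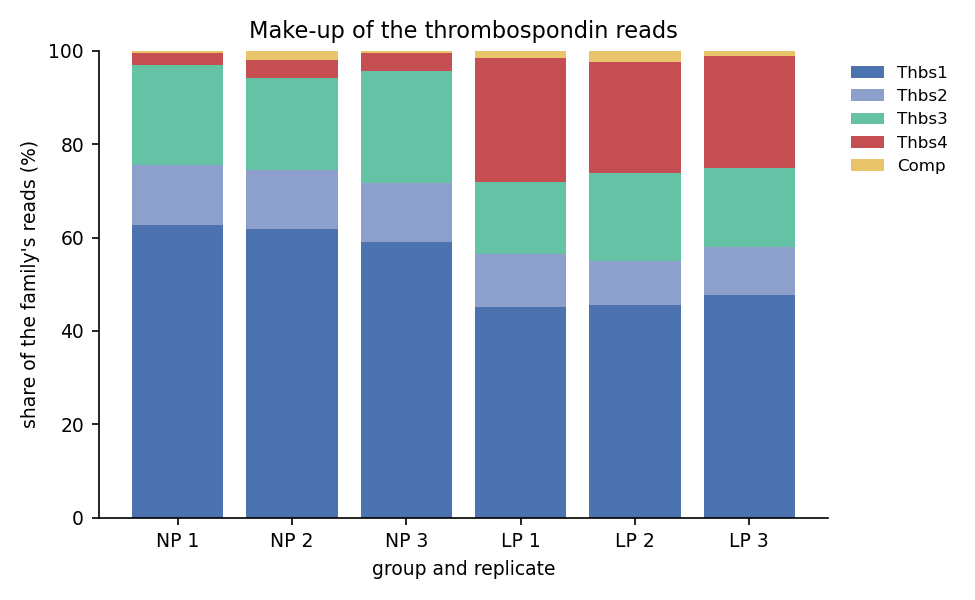
Share of the family's reads, in percent, that each member took in each NP and LP sample. The red block, Thbs4, takes between 2.45% and 3.92% in NP and between 23.8% and 26.5% in LP, and the blue block, Thbs1, between 59.0% and 62.6% in NP and between 45.1% and 47.8% in LP.

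These are libraries of whole tissue, in which more cells of a type and more RNA per cell cannot be told apart. Follicular cell markers had a summed level of 231400 to 249800 CPM in NP and 241700 to 258100 CPM in LP. Thyroglobulin took nearly all of this sum, with means of 232200 CPM in NP and 242000 CPM in LP. Of the 11 tested, 3 rose (Nkx2-1, Duox2 and Duoxa2) and 3 fell (Slc5a5, Tshr and Hhex), with 0 past 2-fold. Slc5a5 fell most, by 0.94 on the log2 scale (SE 0.05, edgeR, adjusted p = 3.06e-10). Skeletal muscle markers moved with Thbs4. Their summed level was 56.5, 213 and 206 CPM in NP and 7141, 6898 and 6854 CPM in LP. Of the 18 tested, 16 rose, against 15.3% of all genes. Of the 19 in the tables, 17 had every LP sample above every NP sample, against 21.1% of all genes tested. Several, such as Myh1, Myl1 and Tnnt3, passed the filter on low counts only through their LP samples. For these, only a rise could be called. Myh1, a fast myosin heavy chain, was at 0 in every NP sample and had 119, 105 and 109 LP reads, and Mylpf, a fast myosin light chain, was at 0 there too, with 9, 15 and 13 LP reads. The troponin Tnnt3 had 3, 8 and 8 reads across NP and 1453, 1436 and 1444 across LP. Acta1, the skeletal actin, differed between replicates and not between groups, with 0, 166 and 144 reads across NP and 0, 186 and 185 across LP. The part of muscle tissue in the difference of Thbs4 was not tested.

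Tendon markers, which belong to another tissue where Thbs4 and Comp are abundant, changed less. Their summed level was 106, 131 and 145 CPM in NP and 153, 166 and 166 CPM in LP. Of 13 listed, 7 were tested, 2 rose and 1 fell. Fmod, a collagen-binding proteoglycan, rose with a log2 fold change of 1.05 ± 0.12 (edgeR, adjusted p = 2.15e-06), and Prg4, lubricin, rose by 1.26 ± 0.33 (adjusted p = 0.00783). Prg4 had 6, 12 and 9 NP reads and would not have passed the filter on low counts without its LP samples. Tnmd, tenomodulin, fell by 0.65 on the log2 scale (adjusted p = 0.00383). Scx, the transcription factor that marks tendon cells, had a value of 0.35 ± 0.14 (adjusted p = 0.0882) in the model of all samples. It passed with the replicate number as a block (adjusted p = 0.0488), but not when replicates 2 and 3 were also summed into 1 sample (adjusted p = 0.0731), and it passed without LP replicate 1 (0.43, adjusted p = 0.0477). Mkx, another tendon factor, had 7, 16 and 12 NP reads and 17, 13 and 10 LP reads. Kera, keratocan, was at 0 in every NP sample and had 4, 4 and 5 LP reads. Cartilage markers summed to 254 to 271 CPM in NP and 275 to 313 CPM in LP. Of 5 tested, 2 rose (Sox9 and Col11a2) and 1 fell (Cytl1), while DESeq2 called 1 higher and 0 lower. Matn1 had 0 reads in every NP sample and 2, 0 and 1 in LP. The part of tendon and cartilage in the members' values was not tested.

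Other cell types were checked in the same way. Platelet markers, which mark the main store of Thbs1 in blood, summed to 80.8 to 88.5 CPM in NP and 87.6 to 92.5 CPM in LP. Nbeal2, with means of 63.1 CPM in NP and 70.1 CPM in LP, took most of this sum, while Pf4, Gp9 and Treml1 were below the filter on low counts. None of the 3 tested passed (0 also at an unadjusted p under 0.05, and 0 with DESeq2). Macrophage markers summed to 176 to 198 CPM in NP and 191 to 212 CPM in LP, with 0 of 10 past the test (3 at an unadjusted p under 0.05, 0 with DESeq2). The sum of endothelial markers was lower in LP, at 918 to 949 CPM against 1043 to 1075 CPM, and Plvap took the largest part of it. Of the 8 tested, 4 fell (Plvap, Kdr, Tek and Emcn). The other 4, Cdh5, Esam, Vwf and Egfl7, did not pass, with log2 fold changes from 0.01 to 0.30. Adipocyte markers summed to 137 to 160 CPM in NP and 138 to 170 CPM in LP. The sum of fibroblast markers followed the replicate more than the group, with 1657, 2728 and 2686 CPM in NP and 1949, 3053 and 2950 CPM in LP. So did that of smooth muscle markers, at 274, 1953 and 1863 CPM in NP and 350, 2048 and 1936 CPM in LP. Single markers departed from these sums. Of 10 fibroblast markers tested, 1 rose (Fbln1) and 1 fell (Dcn), while DESeq2 called 1 higher and 0 lower. Of 8 smooth muscle markers, 1 rose, Synpo2, with 19, 120 and 107 reads across NP and 452, 539 and 551 across LP. Airway markers summed to 88.0 to 99.0 CPM in NP and 104 to 107 CPM in LP, a sum in which Sftpd, a surfactant protein with 196 to 213 NP reads and 199 to 215 LP reads, took the largest part. Of the 5 airway markers tested, 3 rose, and these moved with Thbs4. Scgb3a1, a secretoglobin, had 2, 2 and 4 reads across NP and 28, 26 and 34 across LP, and Scgb1a1, another, had 1, 6 and 8 and then 20, 16 and 15. Bpifa1, a secreted airway protein, had 4, 3 and 6 reads across NP and 21, 32 and 24 across LP. These 3 passed the filter on low counts only through their LP samples, and the part of airway tissue in the members' values was not tested. Parathyroid and C cell markers summed to 18130 to 19450 CPM in NP and 15790 to 16840 CPM in LP. In replicate 1, the summed fibroblast and smooth muscle markers are low in both groups. There the log2 ratio of Thbs1 was as in the other replicates, those of Thbs2 and Thbs4 were larger, and that of Thbs3 was smaller (0.32 against 0.41).

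Genes tied to thrombospondins, or to the processes they act in, were taken from 8 lists and are called partner genes here. The lists held 157 genes in the tables, of which 139 were tested. With an adjusted p-value below 0.05, 20 rose in LP (14.4%, against 15.3% of all genes) and 42 fell (30.2%, against 11.7%), and 7 rose and 4 fell by more than 2-fold. The median log2 fold change was -0.02, beside -0.01 over all genes. The lists with the most genes that fell were those of the endoplasmic reticulum, with 18, and of vessel growth, with 8. The first holds mostly general chaperones and stress genes, which are not particular to thrombospondins.

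Of the receptors and binding partners, 24 were tested, 7 rose, 6 fell and 11 did not pass, with a median log2 fold change of 0.02. Cd36, the scavenger receptor that binds the type 1 repeats of Thbs1 and Thbs2, had 20, 15 and 13 reads across NP and 42, 41 and 48 across LP, and rose by 1.29 ± 0.23 (SE, log2; edgeR, adjusted p = 0.000331). Cacna2d1, the calcium channel subunit that thrombospondins bind at synapses and that is also abundant in skeletal muscle, had 12, 18 and 12 reads across NP and 109, 112 and 114 across LP, a rise of 2.84 ± 0.17 (adjusted p = 8.18e-10). Vldlr, a lipoprotein receptor, had 14, 23 and 17 reads across NP and 78, 79 and 81 across LP and rose by 1.98 ± 0.18 (adjusted p = 2.03e-07). All 3 had every LP sample above every NP sample. Among those that fell, Itga3, an integrin subunit, fell by 0.48 on the log2 scale (adjusted p = 7.49e-06), and Sdc4, a heparan sulfate proteoglycan, by 0.44 (adjusted p = 6.73e-06). Cd36 and Vldlr are also expressed in muscle and fat, and the part of muscle in these differences was not tested. Cd47, the receptor for the carboxyl end of thrombospondins, is named here after its values were seen. It had 88, 107 and 77 reads across NP and 67, 80 and 79 across LP, and the groups overlapped. Its value of -0.42 ± 0.13 passed the test (adjusted p = 0.0287) but not with DESeq2 (adjusted p = 0.161), nor in 5 of the 6 fits that left out 1 sample (adjusted p 0.0551 to 0.147).

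TGF-β ligands, latency proteins and receptors were tested for 21 genes, of which 5 rose, 5 fell and 11 did not pass (median log2 fold change 0.04). Itgb6 and Itgb8, the integrin subunits that release TGF-β from its latent complex by another route than Thbs1, rose by 1.17 ± 0.13 (SE, log2; edgeR, adjusted p = 1.39e-06) and 1.16 ± 0.29 (adjusted p = 0.00643). The call of Itgb8 was lost without LP replicate 3 (0.94, adjusted p = 0.0529). By its 7, 14 and 13 NP reads alone, Itgb8 would not have passed the filter on low counts. Tgfbr2 and Tgfbr3, a signalling receptor and a co-receptor, fell by 0.52 and 0.50 on the log2 scale (adjusted p = 7.34e-05 and 5.33e-05). The level of Tgfb1 itself was 26.1 ± 1.56 CPM in NP and 25.6 ± 1.94 CPM in LP (SD, n = 2). Of 20 TGF-β response genes, 2 rose, 2 fell and 16 did not pass, with a median of 0.16. Ctgf, a matricellular growth factor, rose by 0.53 ± 0.06 (adjusted p = 2.12e-06), and Ski, a repressor of the pathway, by 0.30 ± 0.07 (adjusted p = 0.002). Id3 and Id1, which are also targets of BMP signals, fell by 0.59 and 0.40 on the log2 scale (adjusted p = 1.99e-07 and 2.94e-05).

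Of 16 matricellular genes tested, which like thrombospondins encode matrix proteins that signal to cells, 3 rose, 3 fell and 10 did not pass (median 0.01). Wisp2, of the Ctgf family, rose by 1.02 ± 0.28 (SE, log2; edgeR, adjusted p = 0.0106), with the call lost with DESeq2 (adjusted p = 0.0932) and without NP replicate 2 or LP replicate 3. By its 13, 9 and 12 NP reads alone, Wisp2 would not have passed the filter on low counts. Sparcl1 and Smoc2, both of the SPARC family, fell by 0.48 and 0.35 on the log2 scale (adjusted p = 8.64e-07 and 3.55e-06). Among 17 other proteins with type 1 repeats, 3 rose, 1 fell and 13 did not pass (median 0.22). Adamtsl5, a secreted protein without protease activity, had 2, 4 and 2 reads across NP and 29, 41 and 38 across LP with a log2 fold change of 3.55 ± 0.35. Like Thbs4, it passed the filter on low counts only through its LP samples. Cilp, a matrix protein of cartilage, fell by 0.52 on the log2 scale (adjusted p = 0.000929). Of the proteases that cut thrombospondins, none of 11 passed the edgeR test (2 at an unadjusted p under 0.05, 0 with DESeq2).

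Genes of vessel growth, which Thbs1 and Thbs2 counter, were lower on balance. Of 15 tested, 1 rose, 8 fell and 6 did not pass, with a median log2 fold change of -0.23. Pgf, placental growth factor, had 256, 237 and 298 reads across NP and 109, 123 and 130 across LP, and fell by 1.28 on the log2 scale (SE 0.09; edgeR, adjusted p = 1.04e-08). Vegfb was the member that rose, by 0.63 ± 0.09 (adjusted p = 5.08e-05). Of 8 endothelial markers, 4 fell, but Kdr and Tek among these are already counted in this list.

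Genes of the endoplasmic reticulum, mostly chaperones and stress genes that serve secreted proteins in general, showed the most uniform pattern of the 8 lists. Of 20 genes tested, 18 fell, 0 rose and 2 did not pass, and DESeq2 called 17 lower. The median log2 fold change was -0.55. Creld2, a chaperone of matrix proteins, had 1394, 1409 and 1429 reads across NP and 496, 476 and 536 across LP, and fell by 1.64 on the log2 scale (SE 0.06; edgeR, adjusted p = 7.85e-13). Hyou1, a chaperone of the heat shock family, fell by 1.08 (adjusted p = 1.28e-12), and Pdia4, a disulfide isomerase, fell by 1.00 (adjusted p = 1.88e-11). Thbs4 is known to bind the stress sensor Atf6 inside cells. Atf6, named after its values were seen, fell by 0.25 (adjusted p = 0.0207), with the call lost with DESeq2 (adjusted p = 0.187), with replicates 2 and 3 summed into 1 sample (adjusted p = 0.0679) and without NP replicate 3, LP replicate 2 or LP replicate 3.

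**Figure D4:**
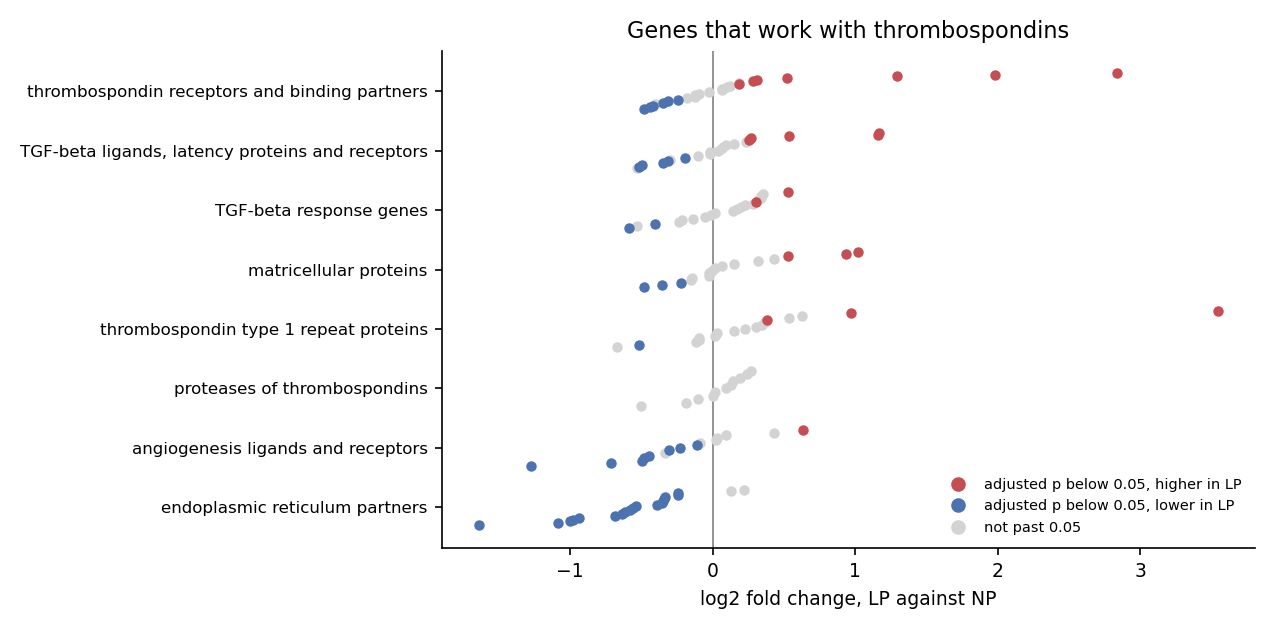
Log2 fold change of LP against NP for each tested gene of the 8 lists of partner genes, 1 point a gene, spread vertically within its list by value. Red and blue points have an adjusted p-value below 0.05 and are higher or lower in LP, and grey points do not pass. The list labelled endoplasmic reticulum partners, which are mostly general chaperones and stress genes, holds 18 blue points and no red one.

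The profiles of the members over the 6 samples were then set beside those of 10443 genes with at least 20 reads on average, by the root mean square (RMS) difference of log2(CPM + 0.5) after centring each gene on its own mean. Nearest to Thbs4 were Ucp3, a mitochondrial carrier of skeletal muscle (RMS difference 0.155), Hspb6, a small heat shock protein of muscle (0.158), and Slc25a34, another mitochondrial carrier (0.169). Ucp3 had 2, 4 and 4 reads across NP and 61, 45 and 48 across LP, and Hspb6 had 54, 88 and 74 and then 852, 948 and 888. Like Thbs4, all 3 had their lowest value in NP replicate 1, which follows largely from their choice by likeness over these samples. By Pearson correlation, which ignores the size of the difference, the 3 nearest to Thbs4 were others, Cycs, Gstp1 and Klhl31. Between 39 and 60 genes, counting the gene itself, correlated with Thbs4 at least as well as Hspb6, Ucp3 or Slc25a34. Nearest to Thbs3 was Scx (0.033), followed by Arid5a (0.053) and Als2cl (0.055). Scx had 47, 57 and 66 reads across NP and 66, 87 and 87 across LP. Ordered by CPM, the 6 samples stood in the same order as for Thbs3, which follows largely from the choice of Scx as the nearest gene. For Thbs1 the nearest were Plk2 (0.041), Tmem126a (0.042) and Adgrb2 (0.046), of which none was among the 3 by Pearson correlation, and for Thbs2 Acvr1 (0.046), Ano8 (0.048) and Zfp467 (0.050). With 6 samples in 2 groups and small differences in these 3 members, such likeness is a description of these libraries. The same holds for Thbs4, whose profile is mostly the group difference on which the family was selected. Comp had too few reads to be included.

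**Figure D5:**
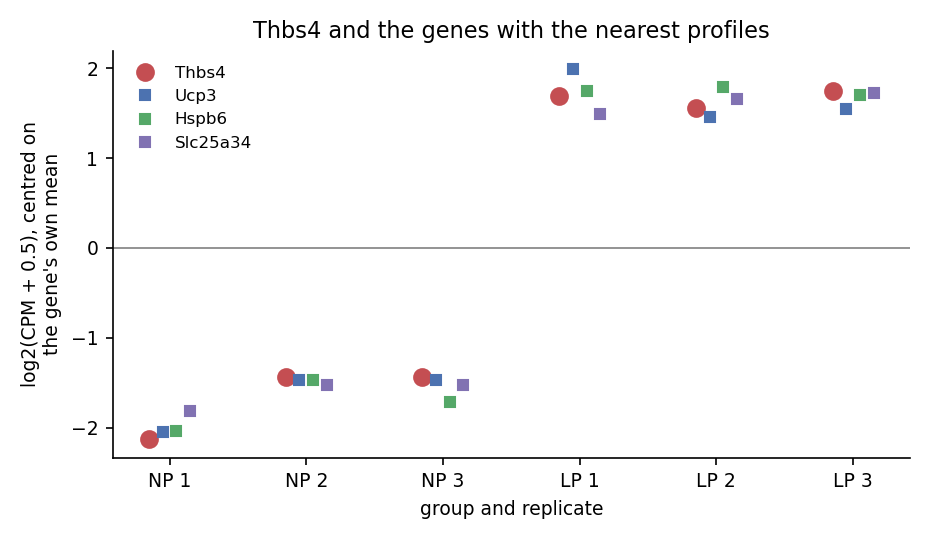
Log2(CPM + 0.5), centred on each gene's own mean, of Thbs4 (red circles) and of the 3 genes with the nearest profile, Ucp3, Hspb6 and Slc25a34 (squares), in each NP and LP sample. All 4 genes are lowest in NP replicate 1 and lie above 0 in the 3 LP samples, and the 3 were chosen for their likeness to Thbs4.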

How the data were processed

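Poly(A)+ RNA of thyroid from 3 NP and 3 LP rats was sequenced. Per the submitters' processing notes, the authors used TopHat 1.4.0 and the build rn5, counted reads per gene with HTSeq (version not given in the sources used here) and deposited raw counts, without normalization, for 15388 genes in each sample. Whether counting used strand is not given in the sources used here. Counts of 3 reads correspond to 0.87 to 1.09 CPM. LP was compared with NP by the quasi-likelihood test of edgeR 4.0.16 in R 4.3.3, with TMM normalization, its default filter on low counts (11738 genes left) and Benjamini-Hochberg adjustment over these. SE is the absolute log2 fold change over the root of the F statistic. DESeq2 1.42.0 was an alternative. SEs and p-values come from all 6 samples, with replicates 2 and 3 as separate samples (biological coefficient of variation 0.0645), and an alternative summed these 2 replicates (0.0781). The members and lists were chosen with earlier results of these data known. Partner genes were named when past the paper's criteria, at most 4 in each direction by size, or else the 2 largest with an adjusted p-value below 0.05, and the 3 nearest profiles were named for each member with at least 20 reads on average. Same-numbered NP and LP samples deviated together from their group means (correlation across 10447 genes 0.521, 0.267 and 0.222 for replicates 1, 2 and 3), so the numbers were taken to pair the samples, from the data and not from the labels, and an alternative fit had this number as a block. Replicates 2 and 3 crossed gave 0.215 and 0.234, so the data pair replicate 1 but do not tell replicate 2 from replicate 3. Fits were tested on simulated data.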

Additional observations from a re-analysis of the deposited data

How the results depend on the processing

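The log2 fold change of Thbs4 lay between 3.31 and 3.65 under the alternatives that could include it, with no test drawn from this. When only genes averaging 50 reads or more were kept, 315 genes were called in place of 638, because fewer genes were tested. This left out Thbs4 itself, so that 0 members were called, against 1, and 1 member in place of 2 had an adjusted p-value below 0.05. With DESeq2, Thbs1 had a log2 fold change of 0.33 and lost its call, which also left 1. Without 1 sample each, 1 to 2 members had an adjusted p-value below 0.05, and Thbs1 ranged from 0.23 to 0.37, with the call lost without NP replicate 1, NP replicate 3 or LP replicate 3. The cause was not tested. The fit with the replicate block called 641 genes, 1 member and 75 partner genes, 27 higher and 48 lower, against 638, 1 and 62. With replicates 2 and 3 summed, so that each group had 2 samples, 669 genes, 1 member and 57 partner genes (18 higher and 39 lower) were called, and with the block as well 728, 1 and 74 (26 higher and 48 lower). Neither the block nor the sum changed a call of a member. Single genes were repeated only for the partner genes given above with a log2 fold change, and for Fmod, Prg4, Scx and Tnmd. Among these, the sum ended the call of Atf6 and the block alone added that of Scx. Thbs2 ranged from 0.35 to 0.51, Thbs3 from 0.31 to 0.50 and Comp from 0.97 to 2.20, the highest without NP replicate 2. Of the repeated values for those partner genes and for Fmod, Prg4, Scx and Tnmd, 383 kept their direction and their side of the threshold. A further 15 lost the call, 2 gained it (Scx) and none turned in direction. Other named markers, such as Dcn and Cytl1, were not repeated in this way. Of the 12 genes nearest to the members, 5 were also chosen by Pearson correlation, 2 for Thbs2 and 3 for Thbs3. At 20 reads over 3 NP samples, depth limits how well the fold of Thbs4 is known, and it limits Comp most.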
